A study of Oryza sativa with 24 samples.

Results

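Young rice panicles at stage 8, when pollen matures, were compared between plants carrying edits in tps2, tps3 and tps6 (3 libraries) and wild type (3 libraries). These 6 were taken by the genotype and stage in the sample titles from 24 deposited columns. Both genotypes share the genetic background Oryza sativa indica cv. IR64 and were grown in the same chamber regime. All 3 edits are combined in 1 triple mutant, so no value below belongs to tps2, tps3 or tps6 alone. The labels do not say whether the mutant plants descend from 1 edited line, nor how many panicles went into a library. RNA was taken from whole panicle tissue, so fewer cells of a type and less RNA per cell cannot be told apart in any value below. Libraries from stages 5 (pollen mother cells form), 6 (their meiosis) and 7 (pollen fills) served to estimate the spread and to set gene classes. At stages 6 and 7, 3 libraries stood identically under both genotypes and were left out, which left 18 libraries. Of each genotype, stage 6 then held 2 libraries and stage 7 only 1.

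Trehalose phosphate synthases belong to the pathway that makes trehalose 6-phosphate, a sugar signal that follows sucrose supply in plants. Class II members carry a synthase-like and a phosphatase-like domain, and for most of them little or no synthase activity is known, so they are mainly studied as regulators of sugar signalling. Maturing rice pollen imports sugar and stores starch, and late pollen development switches on a large set of genes that are silent earlier in the panicle.

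The deposited identifiers are not paired with gene names: 0 of 36099 matched the table of 39387 rice genes of another assembly. The edited genes, the markers of tapetum, meiocytes and pollen and the lists of trehalose, starch and SnRK1 genes were therefore not analysed by name, and neither the genotype nor the tissue label could be checked on them. Genes are given by identifier, with at most 2 higher and 2 lower in the mutant per comparison. Chromosome positions and sequences are not used here.

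Total counts of the 6 stage 8 libraries ranged from 11596245 to 13087188, and between 20504 and 21391 genes reached 1 CPM (the count scaled to a common library size after TMM normalisation). Before any difference between the genotypes is described, the mutant libraries need to be described one by one, because they did not resemble each other as closely as the wild-type libraries did. Across 25483 tested genes, log2 CPM correlated at 0.945 to 0.959 between wild-type replicates. Mutant replicates 1 and 2 correlated at 0.922, replicates 1 and 3 at 0.897 and replicates 2 and 3 at 0.867. Mutant replicate 3 correlated on average at 0.882 with the other mutant libraries and at 0.939 with the wild-type ones. Mutant replicate 1 showed averages of 0.910 and 0.920, and mutant replicate 2 of 0.895 and 0.889. Each wild-type library correlated best with wild type. These correlations are across genes of one pair of libraries, and genes are not independent replicates.

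**Figure D1:**
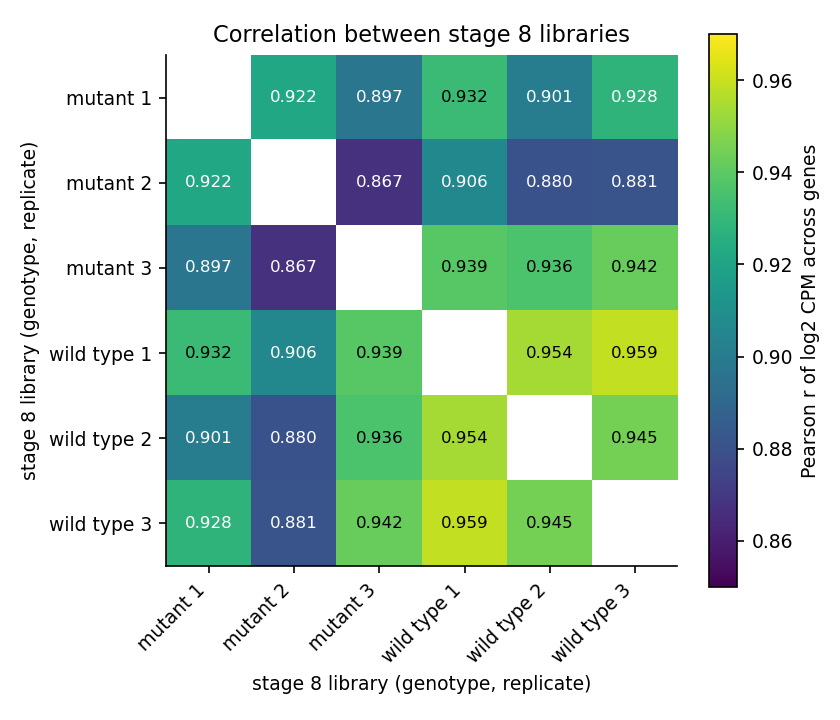
Pearson correlation of log2 CPM across genes for each pair of the 6 stage 8 libraries; rows and columns are libraries, and the number in a cell is the correlation. Wild-type pairs lie at 0.945 to 0.959 and mutant pairs at 0.867 to 0.922, and mutant replicate 3 is closer to every wild-type library than to either mutant replicate.

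The spread between replicates, as the common biological coefficient of variation, was 60.5% among the mutant and 31.0% among the wild-type libraries of stage 8. It was 52.0% between mutant replicates 1 and 2, 56.0% between 1 and 3 and 72.4% between 2 and 3, so no pair of mutant libraries was as close as the widest wild-type pair (37.0%). At stage 5 the order of the genotypes was the opposite, with 11.7% in the mutant and 25.8% in wild type. Among 10690 genes with a mean of at least 20 CPM over the 6 libraries, the highest and lowest mutant library differed by more than 4-fold for 442 genes (4.13%). In wild type this held for 36 genes (0.337%). In the 442 genes the library farthest from the middle one was mutant replicate 3 in 266 cases, 142 high and 124 low. It was replicate 2 in 152 cases, of which 130 were low, and replicate 1 in 24 cases.

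Mutant replicates 1 and 2 left the wild-type range by more than 2-fold for more genes than replicate 3 did. Replicate 1 lay more than 2-fold above the highest wild-type library for 186 of the 10690 genes and more than 2-fold below the lowest for 379. For replicate 2 the counts were 246 and 790, and for replicate 3 they were 1 and 75. A wild-type library set against the other 2 left their range in the same way for 0.168% to 0.889% of the genes, beside 5.29%, 9.69% and 0.711% for mutant replicates 1, 2 and 3. Replicates 1 and 2 were both more than 2-fold above wild type for 116 genes, and replicate 3 lay within or below the wild-type range for 81.9% of these. It was within the range for 25 of them, below it for 70 and above it for 21. Replicates 1 and 2 were both more than 2-fold below wild type for 287 genes, and replicate 3 lay within or above the range for 56.1%. Here it was within the range for 115 genes, above it for 46 and below it for 126.

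**Figure D2:**
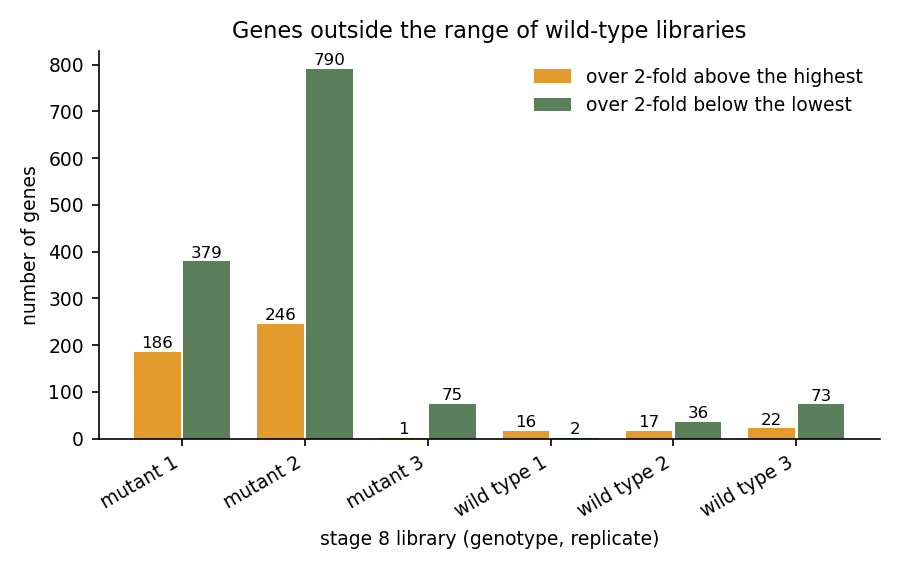
Number of genes, of 10690 with a mean of at least 20 CPM, that lie more than 2-fold above the highest or below the lowest wild-type library at stage 8, for each library; a wild-type library is set against the other 2. Mutant replicates 1 and 2 leave the range for 186 and 246 genes upward and 379 and 790 downward, whereas mutant replicate 3 does so for 1 and 75.

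Splits were ranked among genes of at least 20 CPM mean in the mutant with a count in each mutant library. The widest in 1 direction was that of OsIR64_02g0007920, at 1.84 and 1.5 CPM in mutant replicates 1 and 2 and 81.6 CPM in replicate 3. The wild-type libraries held 82.3, 92.8 and 92.1 CPM. OsIR64_04g0007130 had the same pattern, with 4, 3.83 and 164 CPM in the mutant and 111 to 161 CPM in wild type. In both genes 2 mutant libraries were far below wild type, and the third lay just below its range in the former and just above it in the latter. Wild type itself was split in these genes at stage 6. Its replicates 1 and 2 held 0.715 and 24 CPM of OsIR64_02g0007920 and 6.35 and 282 CPM of OsIR64_04g0007130. The mutant held 2.68 and 4.65 CPM and 44.6 and 54.3 CPM there, so such a split was not particular to the mutant. In the other direction, OsIR64_04g0012040 stood at 65.7, 55.9 and 0.320 CPM in mutant replicates 1 to 3 and at 26.2, 3.04 and 11.9 CPM in wild type. OsIR64_07g0013140 stood at 54.4, 65.8 and 0.320 CPM against 11, 2.13 and 9.41 CPM. Here the third mutant library was below every wild-type library while the other two were above all of them. These 4 genes were picked for their split, so the values are a description.

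The test across all genes took the spread of each gene from the 18 libraries together, not from stage 8 alone. In it, 2 genes differed between mutant and wild type at stage 8 (edgeR's quasi-likelihood F-test, Benjamini-Hochberg adjusted p under 0.05). This is 0.00785% of the 25483 tested (also 2 genes, 0.00672%, without the low-count filter). OsIR64_07g0000620 had 23.6, 35.3 and 23.8 CPM in the mutant libraries and 98.5, 140 and 98.8 CPM in wild type. Every mutant library was below every wild-type library, and mutant replicate 3 was as low as replicate 1. The gene was called lower in the mutant, with a log2 difference of -2.03 and an SE of 0.21 (edgeR adjusted p = 0.00047). It was also lower in the mutant at the earlier stages, at 22.4 to 24.0 CPM against 35.9 to 56.1 CPM at stage 5, 17.0 and 17.5 CPM against 49.1 and 48.8 CPM at stage 6, and 14.0 CPM against 90.7 CPM at stage 7. In wild type the level was higher at stages 7 and 8 than before, and in the mutant it stayed at or below 35.3 CPM throughout.

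OsIR64_05g0013870 had 8.24, 14.5 and 7.59 CPM in the mutant and 1.28, 1.81 and 0.593 CPM in wild type, again without overlap. It was called higher in the mutant, with a log2 difference of 3.04 and an SE of 0.42 (edgeR adjusted p = 0.014). In wild type the level was 3.43 to 4.53 CPM at stage 5 and 0.787 CPM at stage 7, while the mutant held 15.9 to 19.2 CPM at stage 5 and 9.44 CPM at stage 7. The call was lost without wild-type replicate 1 (edgeR adjusted p = 0.13) or wild-type replicate 3 (edgeR adjusted p = 0.081), over a range of 0.00056 to 0.13 when each stage 8 library was left out in turn. When only the 6 stage 8 libraries were fitted, neither gene was called (edgeR adjusted p = 0.59 here and 0.34 for OsIR64_07g0000620). In that fit 1719 of 21951 tested genes had an unadjusted p under 0.05, against 3564 of 25483 in the fit of 18 libraries. With all 24 columns 133 genes were called (0.561%), and OsIR64_07g0000620 was not among them (edgeR adjusted p = 0.061).

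The next gene in each direction missed the threshold. OsIR64_12g0006610 had 9.04, 9.34 and 15.3 CPM in the mutant and 4.95, 4.35 and 4.22 CPM in wild type (fitted log2 difference 1.31 with an SE of 0.22, edgeR adjusted p = 0.060). At stage 5 its level was 73.9 to 97.2 CPM in the mutant and 51.5 to 72.6 CPM in wild type. OsIR64_02g0010070 had 33.0, 24.4 and 41.8 CPM in the mutant and 70.0, 68.2 and 76.1 CPM in wild type (fitted log2 difference -1.11 with an SE of 0.19, edgeR adjusted p = 0.060). The genotypes overlapped at stage 5, at 39.8 to 49.7 CPM in the mutant and 43.7 to 57.5 CPM in wild type. For both genes the mutant and wild-type libraries were apart at stage 8 without overlap.

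**Figure D3:**
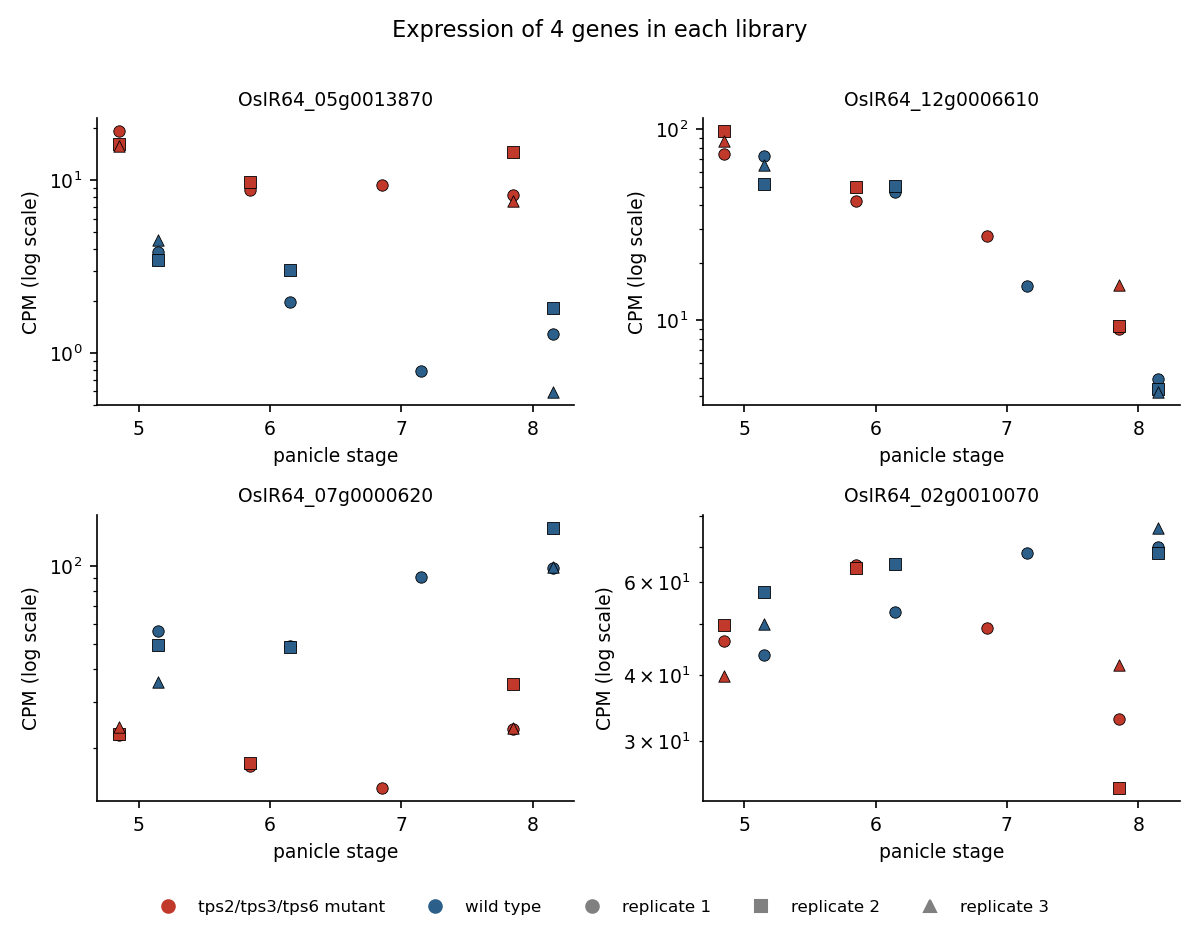
CPM (log scale) of 4 genes in each of the 18 libraries by panicle stage; red is the triple mutant, blue wild type, and the symbol gives the replicate. At stage 8 the 3 mutant libraries lie apart from the 3 wild-type libraries in all 4 genes; OsIR64_07g0000620 and OsIR64_05g0013870 are apart at every stage, and the 2 others were chosen as the next by unadjusted p.

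Whether the genotype difference at stage 8 differed from that at stage 5 was tested in the same fit. None of the 25483 tested genes passed (edgeR), and 1717 of the 25483 had an unadjusted p under 0.05. DESeq2 called 9 genes (0.0409%), and edgeR with all 24 columns called 1 (0.00422%). For OsIR64_07g0000620 the log2 difference was -2.03 at stage 8 and -1.04 at stage 5 (difference -0.99, SE 0.28, edgeR adjusted p = 0.68). For OsIR64_02g0010070 it was -1.11 and -0.15 (difference -0.96, SE 0.26, edgeR adjusted p = 0.68).

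The unadjusted p was under 0.05 for 3564 genes (14.0%), 1768 higher and 1796 lower in the mutant. The 3 mutant libraries were all above the 3 wild-type libraries for 1488 genes (5.84%) and all below them for 2178 genes (8.55%). The median log2 difference over all genes was 0.0014, and the median absolute difference was 0.366. Other tools called more: DESeq2 called 547 genes, 276 higher and 271 lower, which is 2.38% of those it tested. limma with 1 estimated weight per library called 103 genes, 47 higher and 56 lower (0.404%). Its weights were 0.247 for mutant replicate 2, 0.270 for mutant replicate 3 and 0.674 for mutant replicate 1, against 0.569 to 2.20 in wild type. Both genes called by edgeR were among the calls of both tools, and 60 genes were shared by DESeq2 and limma (11% and 58.3% of their lists).

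Among the stage 8 libraries, leaving out mutant replicate 3 changed the edgeR count most. Without it, the count was 2008 genes (7.93%), of which 849 (3.35%) were higher and 1159 (4.58%) lower in the mutant. Fitting the other 5 stage 8 libraries alone gave 976 (4.32%). Leaving out any other stage 8 library gave 1 to 5 genes: 3 without mutant replicate 1 (0.0119%), 5 without mutant replicate 2 (0.0198%), 2 without wild-type replicate 1 (0.00788%) or 2 (0.00789%), and 1 without wild-type replicate 3 (0.00394%). Both genes called with all libraries were among the 2008. The difference between stages 8 and 5 was called for 244 genes (0.964%) without mutant replicate 3 (69 with a higher and 175 with a lower value), and for 0 without any other stage 8 library.

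The left-out library did not choose these genes, so its own values were read for them. Of the 849 genes called higher, mutant replicate 3 was above the wild-type mean for 502 (59.1%), and its median log2 difference from wild type was 0.09 against 1.18 in the other two mutant libraries. Of the 1159 called lower it was below for 746 (64.4%), with a median of -0.13 against -1.24. Replicate 3 thus lay close to the wild-type level for the typical gene of both lists. For comparison, the 500 genes with the smallest p in each direction were taken from each fit with 1 library left out. When mutant replicate 1 or 2 was the one left out, it lay on the same side for 80.0% to 84.6% of them, with median log2 differences of 0.58 and 0.71 upward and -0.48 and -0.79 downward. A left-out wild-type library lay on the expected side for 91.0% to 96.6%. With mutant replicate 3 left out the shares were 60.2% and 64.0%. Each of these readings shares the opposite genotype's libraries with the fit that chose the genes.

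Among the 2008 genes, the 2 with the largest fitted drop and libraries without overlap were OsIR64_08g0014070 and OsIR64_01g0046420. OsIR64_08g0014070 had no count in mutant replicates 1 and 2, and 16.3, 19.0 and 27.3 CPM in wild type (edgeR adjusted p = 0.022). Against a floor of 3 counts over both mutant libraries, the wild-type mean was at least 170-fold higher and the lowest wild-type library at least 133-fold. Mutant replicate 3 held 25.4 CPM. OsIR64_01g0046420 likewise had no count in mutant replicates 1 and 2 and 4.87, 10.8 and 4.59 CPM in wild type (edgeR adjusted p = 0.0026). Its wild-type mean was at least 55-fold higher and the lowest wild-type library at least 37.5-fold, while mutant replicate 3 held 7.75 CPM. In both genes replicate 3 was within the wild-type range. In the other direction OsIR64_08g0008420 had 34.0 and 62.1 CPM in mutant replicates 1 and 2 and 5.99, 1.40 and 2.96 CPM in wild type (fitted log2 difference 3.8 with an SE of 0.69, edgeR adjusted p = 0.0045), and replicate 3 held 4.72 CPM. OsIR64_04g0028690 had 199 and 21 counts in these libraries, 0 in replicate 3 and 0, 3 and 0 in wild type (edgeR adjusted p = 0.029).

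To describe which part of panicle development the stage 8 differences touch, genes were put into 5 classes by their levels at stages 5 to 7 alone. No stage 8 library entered the classes, and the level of a class is the sum of its genes' CPM. Stage 7 held a single library per genotype, so a stage 7 mean has no replicates within a genotype. Classes set on a genotype alone rest on a single stage 7 library. The log2 difference of a class is that between the mean log2 sums of the 3 mutant and the 3 wild-type libraries, not the log2 ratio of the mean sums. With 3 libraries against 3, the smallest p of an exact two-sided permutation test is 0.1, so no class could pass 0.05.

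The clearest separation was in the 1419 genes that rise before stage 8, with a stage 5 mean over 0.5 CPM and a stage 7 mean of at least 5 CPM and at least 4 times that of stage 5. Their sum at stage 8 was 93771, 97717 and 99484 CPM in mutant replicates 1 to 3 and 119030, 140407 and 113699 CPM in wild type. All 3 mutant libraries were below all 3 wild-type libraries, mutant replicate 3 included. The mutant sums lay closer together than the wild-type ones, which does not hold for each gene. OsIR64_02g0025330 alone gave 15244 CPM of the sum of mutant replicate 2, against 7122 and 5291 CPM in replicates 1 and 3. The means were 96990 ± 2925 CPM (SD, n = 3) and 124378 ± 14135 CPM (SD, n = 3), a log2 difference of -0.35 (exact permutation p = 0.1, the smallest possible). At stage 7 the sum was 111910 CPM in the mutant against 140343 CPM in wild type, in a single library per genotype. Levels at stages 5 and 7 set the class, so sums at these stages are only a description. Both genotypes overlapped at stage 5 (11882 to 13282 against 12645 to 17934 CPM) and stage 6 (40317 and 41377 against 34537 and 55033 CPM). The median log2 difference of the 1419 genes was -0.51, against 0 over all tested genes, and 388 of them (27.3%) were lower in the mutant without overlap, beside 8.55% of all tested. In the other direction 16 (1.13%, beside 5.84% of all tested) were higher without overlap. The edgeR test called none of the 1419 singly, with 267 lower and 17 higher at an unadjusted p under 0.05 (18.8% and 1.20%, beside 7.05% and 6.94% of all tested). Without mutant replicate 3 it called 220 lower (15.5%, beside 4.58% of all tested) and 16 higher (1.13%, beside 3.35%). The classes were also set, after the data were examined, on mutant libraries alone (1349 genes) and on wild-type libraries alone (1506 genes). The mutant sums then reached at most 95465 and 105812 CPM and the wild-type sums were at least 107736 and 121062 CPM, still without overlap.

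The most abundant of these genes did not follow the class. OsIR64_02g0025330 had 7122, 15244 and 5291 CPM in the mutant and 7492, 8087 and 5280 CPM in wild type (fitted log2 difference 0.41 with an SE of 0.32, edgeR adjusted p = 0.58). In mutant replicate 2 it took 1.52% of all counts, the highest share of any gene in the 18 libraries.

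The opposite picture, a split within the mutant, came from genes with next to no counts before stage 8. A set of 9063 genes had at most 3 counts in all in the 12 libraries of stages 5 to 7. The set includes every gene without a count in any column, and only 29979 of the 36099 genes had one. Many of the 9063 were thus not seen at stage 8 either. Their sum at stage 8 was 4721 and 4433 CPM in mutant replicates 1 and 2 but 351 CPM in replicate 3, and 1550, 749 and 907 CPM in wild type. Mutant replicates 1 and 2 were above every wild-type library, and replicate 3 was below every one. The number of these genes that reached 1 CPM was 348, 334 and 105 in the mutant and 213, 137 and 160 in wild type. The means were 3168 ± 2444 CPM (SD, n = 3) and 1068 ± 424 CPM (SD, n = 3; log2 difference 0.93, exact permutation p = 0.4). The log2 difference was 2.17 without mutant replicate 3, and 0.29 and 0.34 without replicates 1 and 2. Only 611 of the 9063 had enough counts to be tested gene by gene, and none was called by edgeR. At an unadjusted p under 0.05, 42 were higher (6.87%, near the 6.94% of all tested) and 12 lower (1.96%, beside 7.05%). Without mutant replicate 3, 37 of the 568 tested were called higher (6.51%, beside 3.35% of all tested) and 0 lower. Genes with next to no counts earlier could pass the low-count filter only through their stage 8 levels, so these counts are a description. The most abundant, OsIR64_06g0001620, stood at 314, 365 and 4.08 CPM in the mutant and 82.2, 29.1 and 42.7 CPM in wild type.

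The 97 genes switched on at stage 7, at no more than 0.5 CPM in stages 5 and 6 and at least 5 CPM in stage 7, split in the same way. Their sum was 7009, 8366 and 3933 CPM in the mutant and 5479, 5937 and 4999 CPM in wild type (log2 difference 0.17, exact permutation p = 0.6, and -0.06 without mutant replicate 2). Mutant replicates 1 and 2 were again above all wild-type libraries and replicate 3 below them. The median log2 difference of the single genes was -0.42, opposite in sign to that of the sum, and 20 of the 97 genes (20.6%, beside 8.55% of all tested) were lower in the mutant without overlap and 1 higher (1.03%, beside 5.84%). OsIR64_01g0044260, the most abundant, had 1404 to 3940 CPM in the mutant and 1336 to 2135 CPM in wild type (fitted log2 difference 0.47 with an SE of 0.40, edgeR adjusted p = 0.64).

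The 510 genes with a stage 5 mean of at least 5 CPM and at least 4 times that of stage 7 summed to 3375, 5618 and 4822 CPM in the mutant and 3895, 3789 and 2861 CPM in wild type. Replicate 1 of the mutant lay inside the wild-type range and the others above it (log2 difference 0.37, exact permutation p = 0.3). Their median log2 difference was 0.35, and 46 genes (9.02%, beside 5.84% of all tested) were higher and 5 (0.98%, beside 8.55%) lower in the mutant without overlap. At an unadjusted p under 0.05, 96 were higher (18.8%, beside 6.94% of all tested) and 13 lower (2.55%, beside 7.05%), and none was called. The most abundant, OsIR64_06g0025530, overlapped, at 41.2 to 64.9 CPM in the mutant and 41.4 to 56.0 CPM in wild type.

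The 6956 steady genes had means at stages 5, 6 and 7 that were all at least 5 CPM and within 1.5-fold. They summed to 412003 to 449092 CPM in the mutant and 419212 to 448530 CPM in wild type (log2 difference -0.03, exact permutation p = 0.6). Their median log2 difference was -0.01. TMM normalisation centres the bulk of the genes, so these small differences are partly set by it and are no independent baseline. OsIR64_11g0023400, the most abundant of them, had 4178, 4019 and 2919 CPM in the mutant and 3438, 2783 and 2575 CPM in wild type (fitted log2 difference 0.34 with an SE of 0.19, edgeR adjusted p = 0.43).

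**Figure D4:**
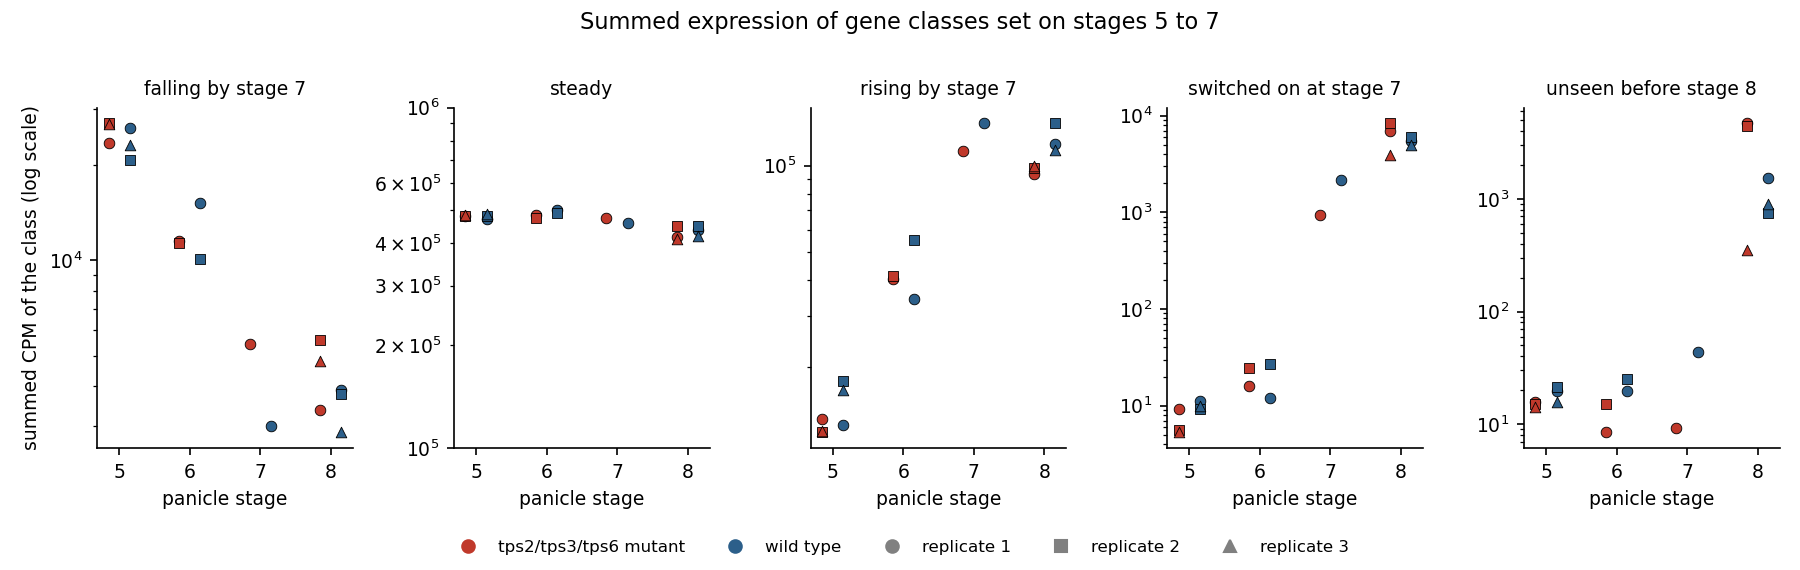
Summed CPM (log scale, with its own range in each panel) of 5 gene classes set on stages 5 to 7, in each of the 18 libraries by panicle stage; red is the triple mutant, blue wild type, and the symbol gives the replicate. At stage 8 the rising class is lower in all 3 mutant libraries (93771 to 99484 against 113699 to 140407 CPM), and the class unseen before stage 8 is split in the mutant, at 4721 and 4433 CPM against 351 CPM in replicate 3.

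The same classes described the genes on which the mutant libraries disagreed. Of the 142 genes high in mutant replicate 3 alone, 52.8% were in the rising class, which holds 7.67% of the 10690 genes considered. Of the 130 genes low in replicate 2 alone, 43.8% were. Of the 287 genes for which replicates 1 and 2 were both more than 2-fold below wild type, 133 (46.3%) were in the rising class. Among the 2008 genes called without replicate 3, 42.6% of the 1159 lower ones had at least doubled between stages 5 and 7, against 8.13% of the 849 higher ones and 19.9% of all tested.

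The labels of the stage 8 libraries could be read on genes chosen without them. A fit of the 12 libraries of stages 5 to 7 alone called 26 genes between the genotypes over these stages (0.111% of 23366 tested), 13 higher and 13 lower in the mutant. It weighed the 3 stages equally, although stage 7 held a single library per genotype. At stage 8, 25 of the 26 kept their sign, 11 separated the groups without overlap in that direction (beside 14.4% of all tested genes in either direction), and 2 were called. The median log2 difference of the 13 higher genes was 1.43 at stages 5 to 7 and 1 at stage 8, and that of the 13 lower genes was -1.75 and -1.09. Mutant replicates 1, 2 and 3 lay on the expected side of the wild-type mean for 23, 23 and 22 of the 26 genes, by a median of 0.96, 1.20 and 0.81 on the log2 scale. They were nearer to the mean of the other mutant libraries than to wild type for 16, 20 and 16 genes, whereas the wild-type libraries were so for 6, 9 and 4. Mutant replicate 3 was thus nearer the mutant for 16 of these 26 genes, while across all genes it correlated better with wild type.

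Among those of at least 5 CPM, the gene with the largest difference at the earlier stages was OsIR64_02g0016870, which had 9.04, 1.83 and 46.0 CPM in the mutant at stage 8 and 0.479, 1.31 and 1.04 CPM in wild type. Mutant replicate 3 held the most, and replicate 2 was only just above wild type (fitted log2 difference 4.32 with an SE of 0.90, edgeR adjusted p = 0.11). OsIR64_12g0003410, the next, was near the detection limit at 2.08, 3.17 and 0.799 CPM against 1.04, 0.328 and 0.148 CPM, with overlap. Its earlier difference came from stage 7, with log2 differences of 0.22 at stage 5, 0.04 at stage 6 and 8.93 at stage 7. The single wild-type library of stage 7 had no count of it. In the other direction OsIR64_05g0008480 had 3.52, 2.25 and 0.879 CPM against 7.03, 8.37 and 9.78 CPM, without overlap (fitted log2 difference -1.92 with an SE of 0.52, edgeR adjusted p = 0.14). OsIR64_05g0026250 had 4.08 and 0.667 CPM in mutant replicates 1 and 2, 67.1 CPM in replicate 3, and 75.0, 95.1 and 69.2 CPM in wild type (fitted log2 difference -1.73 with an SE of 1.04, edgeR adjusted p = 0.47). All 3 mutant libraries were below wild type in this gene, replicate 3 only just. Its earlier log2 differences were -1.17 at stage 5, -1.56 at stage 6 and -8.1 at stage 7, where the single mutant library held 1 count.

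**Figure D5:**
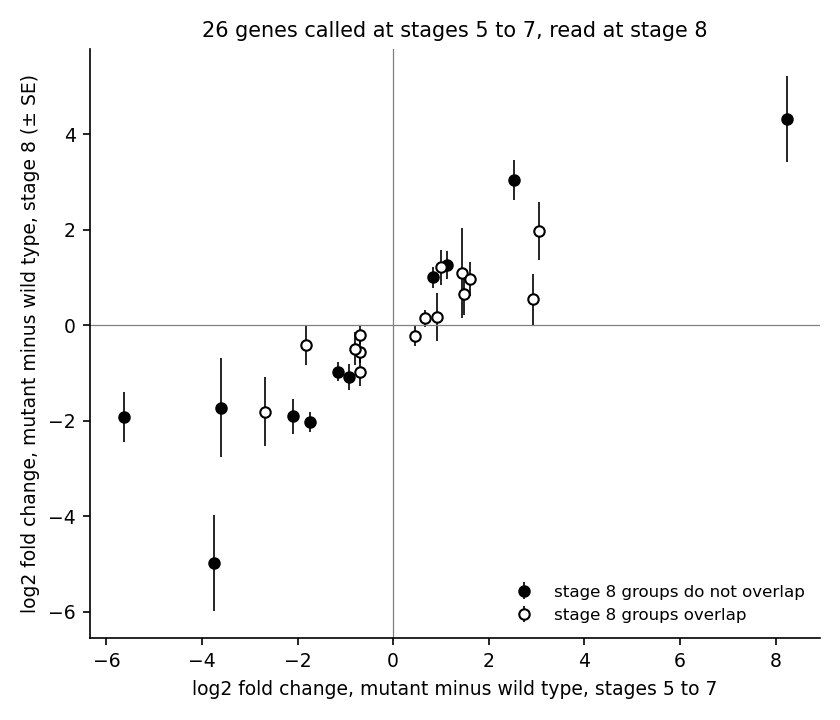
Log2 fold change of mutant over wild type for the 26 genes called in the libraries of stages 5 to 7 (x axis) against the same at stage 8 (y axis, bars are SE); filled points are genes whose 3 mutant and 3 wild-type libraries at stage 8 do not overlap in the earlier direction. The sign is the same for 25 of the 26 genes, and 11 do not overlap.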

How the data were processed

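Gene expression was measured by RNA sequencing of rice panicles. The authors deposited whole-number counts per gene for 24 columns. STAR alignment to an IR64 genome and HTSeq counting on a high-confidence annotation come before these counts, as the series text has it. Trimmomatic 0.39 and kallisto are named in the submitters' processing notes. Strand setting and the handling of reads shared by paralogs have no mention there, so near-identical, overlapping and antisense genes are uncertain. Of 276 pairs of columns, 3 were identical in all 36099 rows and were left out, so 18 libraries remained; no other pair differed in fewer than 23573 rows.

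The quasi-likelihood fit (edgeR 4.0.16, R 4.3.3, robust glmQLFit, TMM, filterByExpr) took the 8 groups together with 10 residual degrees of freedom, and p-values were Benjamini-Hochberg adjusted over 25483 genes. Standard errors came from the log2 fold change and its F statistic. Correlations used log2 CPM with a prior count of 2, other log2 levels of single libraries a pseudocount of 0.5 CPM, and fold ranges 0.1 CPM. Alternatives were DESeq2 1.42.0, limma 3.58.1 with library weights, RLE size factors, no filter, a replicate block, all 24 columns, stage 8 libraries alone, a 1.5-fold minimum and leaving out each stage 8 library. The fits were tested on simulated data. The series text calls the replicates biological and independent but names no plants, so p-values measure the spread between libraries. In the main fit that spread is shared over the 18 libraries and is not that of stage 8 alone. The common biological coefficient of variation of a group ran from 11.7% (mutant, stage 5) to 60.5% (mutant, stage 8). Floors cover counting error only.

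Named genes were those without overlap between the groups and with at least 5 CPM in the higher group, called ones first by size of change, then by unadjusted p. For the split they had the largest or smallest ratio of mutant replicate 3 to the mean of the other mutant libraries. Only genes of at least 20 CPM mean in the mutant with a count in each mutant library were ranked. In each class the most abundant gene was named, and for the earlier stages the largest changes. The comparison, classes and lists were chosen with earlier results of these data known. Classes split by genotype and the 26 genes of the earlier stages were added after the data were examined.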

Additional observations from a re-analysis of the deposited data

How the results depend on the processing

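The count of genes called between the genotypes at stage 8 was 2 with RLE size factors, with no low-count filter, with a minimum fold of 1.5 and with a replicate block. It was 547 with DESeq2, 103 with limma and library weights and 133 with all 24 columns. With the 6 stage 8 libraries alone it was 0 (edgeR), and 1719 of 21951 tested genes had an unadjusted p under 0.05. Leaving out 1 library gave 1 to 2008, and 976 when the 5 libraries without mutant replicate 3 were fitted alone. The count for the difference between stages 8 and 5 was 0 in the main test and 9 with DESeq2, 1 with all 24 columns and 0 to 244 when 1 library was left out. The cause of these changes was not tested. The mean correlation among mutant libraries was 0.896, and 0.822 for genes of at least 5 CPM. Among wild-type libraries it was 0.953 and 0.948. The summed level of the genes switched on at stage 7 (0.17 on the log2 scale) changed sign when the class was set on mutant libraries alone (-0.11), and ranged from -0.06 to 0.49 when 1 library was left out. The other 4 classes kept their sign under every alternative run on them. Deviations of same-numbered mutant and wild-type libraries correlated at 0.0857, 0.0959 and 0.113. Those of differently numbered libraries ran from -0.386 (mutant replicate 3, wild-type replicate 1) to 0.366 (mutant replicate 2, wild-type replicate 1). The numbers were therefore not taken to pair the libraries. The replicate block, with 5 residual degrees of freedom, called 2 genes, the same 2 as without it.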
